A study of Rattus norvegicus with 12 samples.

Results

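The comparison is between rat hippocampal cultures kept for 9 h with both main kinds of ionotropic glutamate receptor blocked and cultures left untreated for those 9 h. Its members are the 3 arrays labelled with GYKI-52466 and MK-801 for 9 h and the 3 arrays of the control of 9 h, 6 of the 12 arrays of the series, and all 21250 genes or unnamed targets that could be tested. The cultures came from Wistar rat embryos of embryonic day 18 and were 14 to 15 days old in culture. Blocked cultures received 50 µM GYKI-52466, an antagonist of AMPA receptors, together with 10 µM MK-801, a channel blocker of NMDA receptors, and the untreated cultures received neither. The other 6 arrays held cultures blocked for 26 h with the same mixture and their own untreated cultures, and the labels describe 3 independent cultures at each time. Whole cultures were lysed, so that fewer cells of a type and less RNA per cell cannot be told apart, and no group separates the effect of 1 antagonist from that of the other.

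Glutamate opens AMPA receptors, whose current depolarises the neuron and relieves the magnesium block of NMDA receptors. Calcium that enters through NMDA receptors and voltage-gated channels activates calmodulin kinases and the ERK cascade, and these act on CREB, SRF and MEF2 to switch on immediate early genes within minutes and a later set of secreted factors, neuropeptides and feedback regulators within hours. When excitatory drive is withdrawn for many hours, cultured neurons are known to scale up the number of AMPA receptors at their synapses, a form of homeostatic plasticity.

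Levels are given as log2 signal relative to the 75th percentile of the array, and a difference is blocked minus untreated on that scale, so that 1 means a doubling. A gene passed when its adjusted p in limma, a linear model fitted to all 12 arrays with Benjamini-Hochberg adjustment over all genes tested, lay below 0.05. The arrays of 9 h were scanned on different days by group, the untreated ones on day 1 and the blocked ones on day 2, so that scan day and blockade cannot be told apart within this comparison. At 26 h the days are the other way round, with blocked arrays on day 1 and untreated arrays on day 2. A further difference, blocked 9 h minus untreated 26 h, lies within day 2 but compares cultures of different times. It shares its blocked arrays with the comparison at 9 h and its untreated arrays with that at 26 h. These differences are thus not independent. The mirror difference, blocked 26 h minus untreated 9 h, lies within day 1 and also shares arrays with both comparisons. It too compares cultures of different times. It equals the differences at 9 h and 26 h added together, less that within day 2. The value within day 1 thus follows from the others and adds no separate evidence. It is given for some activity genes that did not pass within day 2. Most genes below are given with at least 1 of the other differences beside that at 9 h. Each of the 6 slides held 1 array of either time with the same replicate number, untreated 9 h beside blocked 26 h or blocked 9 h beside untreated 26 h, and the correlation within slides was 0.501. On each array 77.64% to 86.75% of 42877 spots that were no controls gave a signal well above background, and replicate arrays had correlations of 0.985 to 0.994 over the genes.

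The label was checked against markers. All 18 pan-neuronal markers and all 16 markers of excitatory neurons tested lay above background on each of the 6 arrays of 9 h. The summed linear level of the pan-neuronal markers was 89.6 to 133.6 times the 75th percentile signal on untreated and 119.1 to 126.4 on blocked arrays. Other cell types were present as well. The 17 astrocyte markers summed to 106.1 to 148.7 on untreated and 107.1 to 140.4 on blocked arrays, the 17 microglial markers to 5.168 to 6.282 and 4.774 to 6.723, and the 19 meningeal, fibroblast and vascular markers to 17.17 to 54.91 and 15.67 to 50.39. Replicate 3 gave the highest meningeal sum in each group.

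At 9 h, 4479 of the 21250 genes passed (21.1%), 2432 higher (11.4%) and 2047 lower (9.63%) in blocked cultures, and 645 of them changed at least 2-fold (294 higher, 351 lower). Same-numbered cultures deviated together, and a fit blocked on that number passed 7625 (3920 higher and 3705 lower). Blocked and untreated arrays of 9 h did not overlap for 34.7% of genes. At 26 h, 3472 genes passed (16.3%), 1461 higher (6.88%) and 2011 lower (9.46%), and within day 2 751 passed (482 higher, 269 lower). The median difference over all genes was 0.02 at 9 h, -0.06 at 26 h and 0. within day 2. Genes that passed at both times were more often of opposite than of like direction. In all, 968 were higher at 9 h and lower at 26 h and 593 the reverse, against 112 higher at both times (0.527%) and 136 lower at both (0.64%). The comparisons of 9 h and 26 h share no sample, but they share slides. The counts depended on single arrays. At 9 h 2854 genes passed without untreated 9 h replicate 2 (1174 lower), 2774 without blocked 9 h replicate 1 (1445 higher and 1329 lower) and 2804 without blocked 9 h replicate 2 (1170 lower). Without replicate 3 of every group 1744 passed at 9 h, and 99 opposite calls stood against 43 higher and 46 lower at both times. With the 6 arrays of 9 h fitted alone 2042 passed. Opposite calls at the 2 times, 1561 in all, numbered 620 without untreated 26 h replicate 2, 865 without replicate 3 of that group, and 813, 767 and 969 without blocked 26 h replicates 1, 2 and 3. Genes higher at both times numbered 61 without untreated 26 h replicate 2 and 68 and 60 without blocked 26 h replicates 1 and 2.

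Most genes of the activity programme that fell at 9 h were lower at 26 h too. Synaptic and channel genes that rose at 9 h were seldom higher at 26 h, and the share was near that of all genes that rose. Of 87 genes on 4 lists of activity-dependent genes, 42 were lower at 9 h and 2 higher, beside 9.63% of all genes lower. Of those 42, 40 were also below 0 at 26 h and 32 passed there as lower. Over all genes, 411 of the 2047 that were lower at 9 h lay below 0 at 26 h. Of 239 genes on 10 lists of synaptic and ion channel genes, 71 were higher at 9 h and 10 lower, beside 11.4% of all genes higher. Of the 71, 16 lay above 0 at 26 h, 3 passed there as higher and 22 as lower. Over all genes the count above 0 was 472 of 2432. Within day 2, 26 of the activity genes passed as lower, and of the synapse and channel genes 8 passed as higher and 5 as lower. The medians within day 2 were -0.27 and 0.03. These are counts of list members, and the lists were not compared with other genes by a test. Of all genes, 11.4% were higher and 9.63% lower at 9 h, and 0.527% and 0.64% at both times. Counts with the replicate block stand beside the larger counts of that fit, 3920 higher and 3705 lower of 21250.

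**Figure D1:**
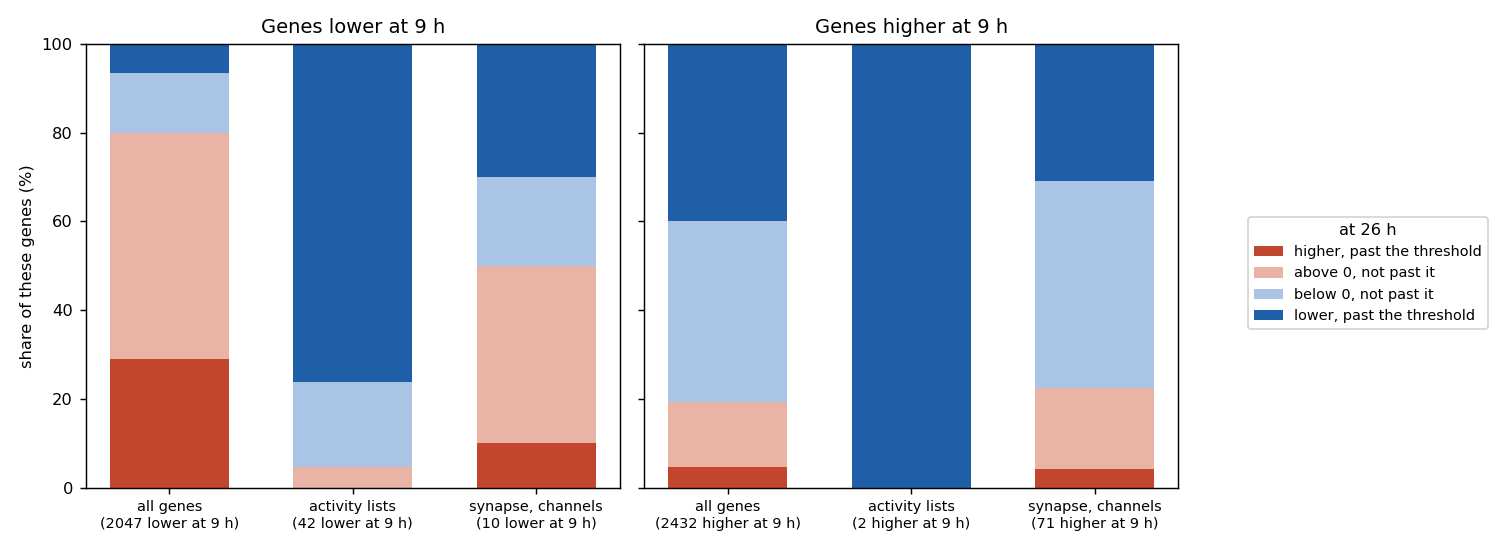
Share of genes that passed at 9 h (y axis, percent), split by what the same genes did at 26 h. The left panel holds genes lower at 9 h and the right panel genes higher at 9 h, for all genes, the activity lists and the synapse and channel lists, with the number of genes under each bar. Of the 42 activity genes lower at 9 h, 32 passed as lower at 26 h, while of the 71 synapse and channel genes higher at 9 h 22 passed as lower at 26 h.

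**Figure D2:**
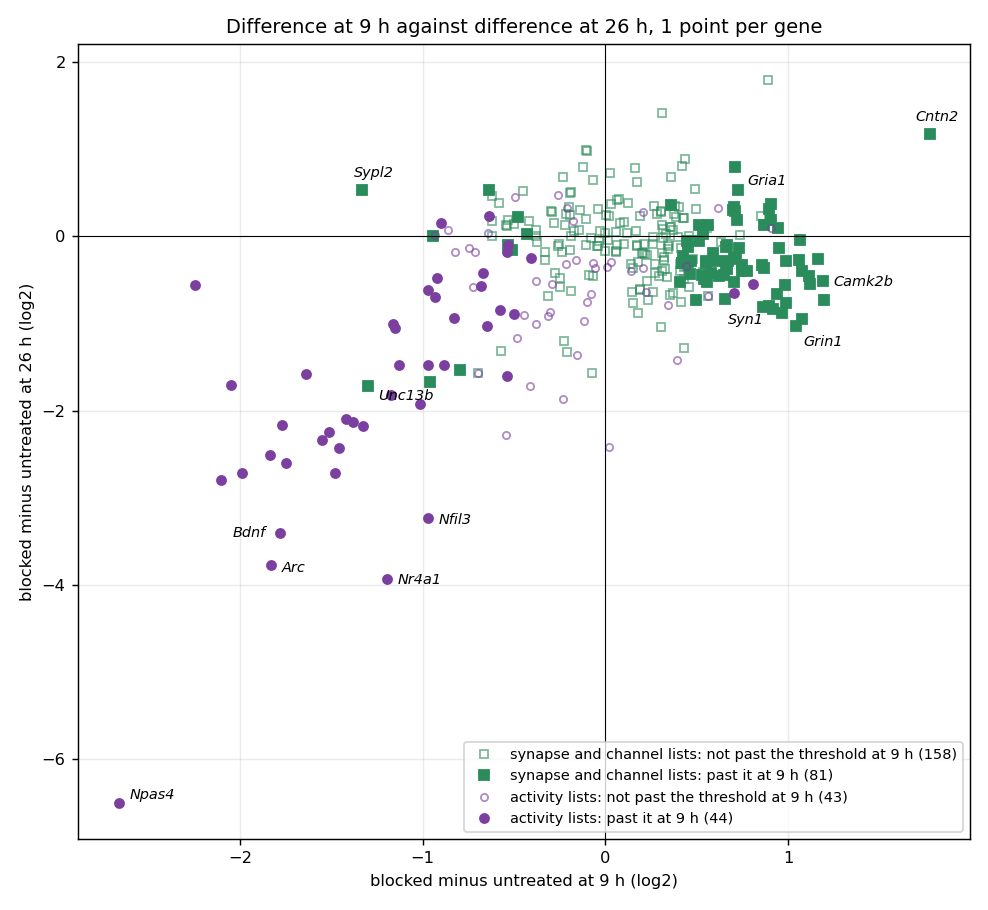
Difference between blocked and untreated cultures at 9 h (x axis, log2) against that at 26 h (y axis, log2), 1 point per gene, for the activity lists (circles) and the synapse and channel lists (squares). Filled points passed at 9 h. Activity genes lie mostly at the lower left, with Npas4 at -2.66 and -6.50 (its blocked arrays of 26 h lay below background), and most filled squares lie right of 0 at 9 h and below 0 at 26 h.

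Several of the best known transcription factors of the immediate early class fell. Of 27 tested, 12 were lower at 9 h, 1 was higher and 14 did not pass, and 11 were lower at both times. The median difference of the list was -0.64 at 9 h, -0.87 at 26 h and -0.31 within day 2. Npas4, a factor that calcium entry induces, read -3.83, -3.08 and -1.78 on the untreated arrays of 9 h and -6.11, -6.08 and -4.49 on the blocked ones. The lowest untreated array lay above the highest blocked array. Npas4 fell by 2.66 ± 0.56 (SE, 3 arrays against 3, limma adjusted p = 0.00883). At 26 h its blocked arrays lay below background, so that the fall there was at least 61.4-fold, and within day 2 the difference was -3.68. Fos, the AP-1 subunit used as a marker of recent activity, read -0.15, -0.06 and 0.33 untreated and -1.53, -1.44 and -0.88 blocked. All blocked arrays lay below all untreated ones, and Fos fell by 1.32 ± 0.27 (2.5-fold, limma adjusted p = 0.00714). Its difference was -2.17 at 26 h and -1.54 within day 2, and both passed. Nr4a2, an orphan nuclear receptor, was at 2.43, 2.36 and 2.44 in untreated and 0.58, 0.36 and 0.31 in blocked cultures. The untreated arrays lay close together and far above the blocked ones, and Nr4a2 fell by 1.99 ± 0.30 (limma adjusted p = 0.00214), by 2.72 at 26 h and by 1.82 within day 2.

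Its relative Nr4a1 fell by 1.197 ± 0.34 at 9 h and fell by 3.93 at 26 h (limma adjusted p of the difference between the times = 0.00247). Nfil3, a bZIP repressor, fell by 0.97 at 9 h and 3.24 at 26 h. Csrnp1, a nuclear factor, had differences of -1.17 at 9 h, -1.82 at 26 h and -1.51 within day 2, while its other probe read -0.63 at 9 h and did not pass. The AP-1 genes Fosl2 (-1.15) and Junb (-0.89) fell at 9 h, and both were also lower at 26 h and within day 2. Egr4, a zinc finger factor of the EGR family, fell by 1.42 at 9 h and 2.10 at 26 h, while its -0.74 within day 2 did not pass. The cyclic AMP responsive factors Crem (-0.83) and Atf3 (-0.58) fell at 9 h and at 26 h (-0.93 and -0.84), yet within day 2 they read 0.51 and 0.34, neither past the threshold. Within day 1 they read -2.27 and -1.76, and both passed. Egr1, the best known member of its family, read 0.22, 0.26 and 1.44 in untreated and 0.26, 0.15 and 0.82 in blocked cultures at 9 h. The arrays overlapped, its difference of -0.23 did not pass (limma adjusted p = 0.655), and at 26 h it fell by 1.86. Jund, the AP-1 gene known for its steady expression, was the member that rose, by 0.81, and at 26 h it fell by 0.55. When single arrays were left out, Junb (highest limma adjusted p = 0.0834 without blocked 9 h replicate 2), Nr4a1 (0.105 without blocked 9 h replicate 2) and Atf3 (0.154 without blocked 9 h replicate 2) missed the threshold. Fitted on the 6 arrays of 9 h alone, 7 of the list were lower.

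**Figure D3:**
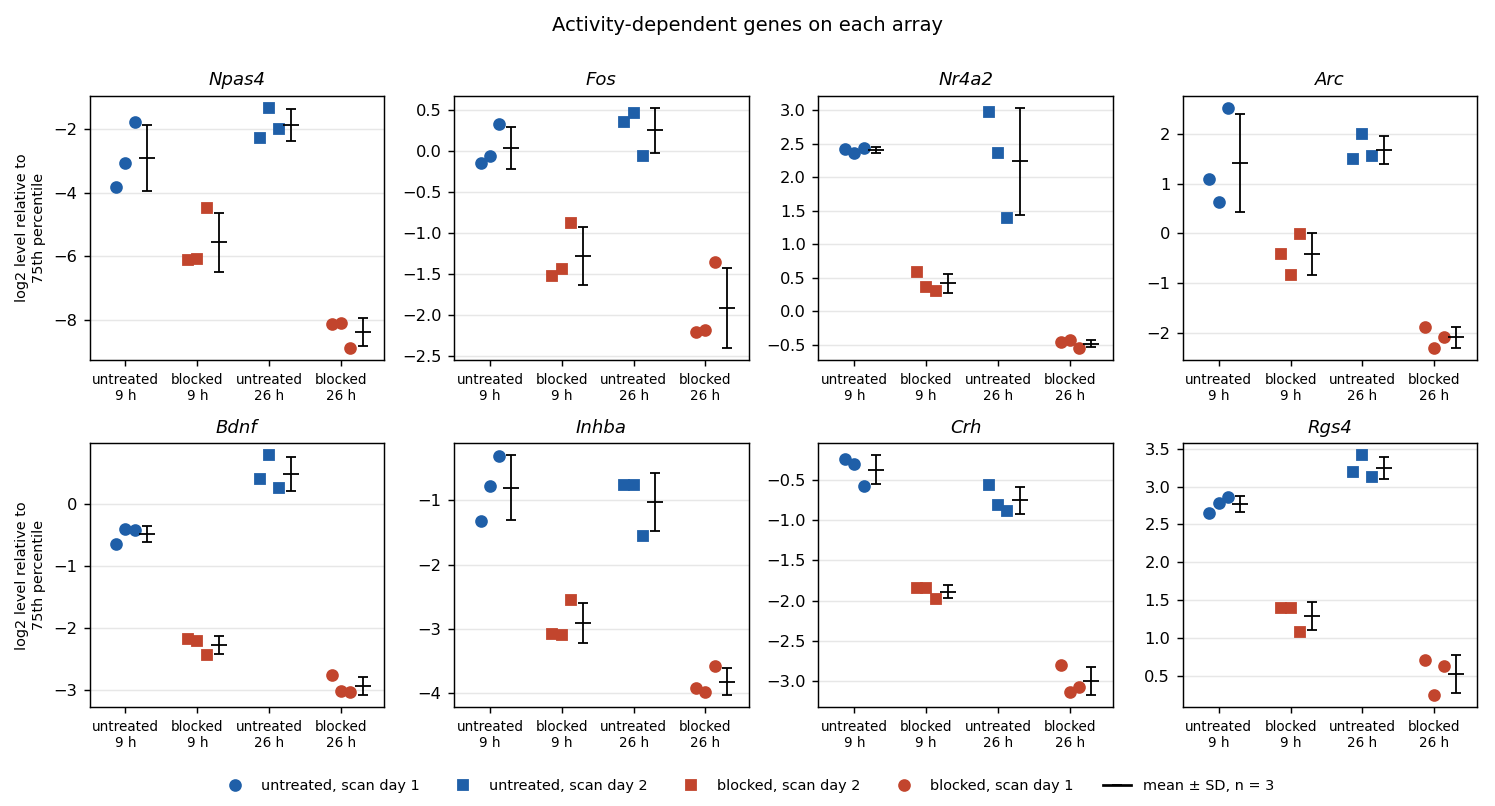
Level of 8 activity-dependent genes on each array (y axis, log2 relative to the 75th percentile of the array, a separate scale per gene) in the 4 groups (x axis). Each point is 1 array, its shape the scan day, and the bars beside the points are mean and SD over 3 arrays. For each gene the blocked arrays of 9 h lie below the untreated arrays of 9 h and below those of 26 h, which were scanned on the same day as the blocked ones.

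Promoters of these genes are shown because CREB, a factor that NMDA receptor and calcium channel signals activate, binds the sequence TGACGTCA or its half-site TGACG. RefSeq promoter windows of build GRCr8, from 250 bases before to 50 after the first listed transcription start, were available for 10112 of the tested genes. Of the 17 immediate early genes lower at both times, 13 had a window. In 10 of those 13 windows the half-site was found on either strand, against 22.0% of all 27457 windows, 29.6% of those of tested genes and 31.6% of the 79 promoters of genes lower at both times. The full site TGACGTCA was in 1.91% of all windows, 2.99% of those of tested genes and 2.53% of the 79. In the same order the AP-1 motif TGANTCA was in 7.33%, 5.56% and 10.1%, and the EGR motif GCGTGGGCG in 0.59%, 0.91% and 1.27%. Of the 59 promoters of genes higher at both times, 35.6% held the half-site. The full site was in 1.69% of the 59, the AP-1 motif in 8.47% and the EGR motif in 0%. The sets were not matched on base composition. Immediate early genes that were not lower at both times were not counted, so that 10 of 13 cannot be tied to the fall. A full site holds 2 overlapping half-sites on opposite strands. None of the 13 held the AP-1 motif. Such a match is a stretch of letters in the window and does not show binding. The 5 genes with at least 2 half-sites before the start are printed with the 250 bases before the start, 5′ to 3′ on the strand of the gene, the half-sites of either strand in capitals. Positions count back from the base before the start, and coordinates are of GRCr8.
Crem, chr17:58933816-58934065, plus strand: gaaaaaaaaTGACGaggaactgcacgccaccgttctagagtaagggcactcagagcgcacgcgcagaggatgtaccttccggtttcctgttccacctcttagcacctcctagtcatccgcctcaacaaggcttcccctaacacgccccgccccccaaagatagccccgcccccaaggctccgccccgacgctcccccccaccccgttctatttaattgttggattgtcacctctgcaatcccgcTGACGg
Egr4, chr4:119607818-119608067, minus strand: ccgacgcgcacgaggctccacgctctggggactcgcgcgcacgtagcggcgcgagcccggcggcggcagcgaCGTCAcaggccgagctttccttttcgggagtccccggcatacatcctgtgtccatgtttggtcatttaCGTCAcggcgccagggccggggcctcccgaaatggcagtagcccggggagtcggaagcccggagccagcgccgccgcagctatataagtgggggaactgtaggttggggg
Nr4a1, chr7:134259888-134260137, plus strand: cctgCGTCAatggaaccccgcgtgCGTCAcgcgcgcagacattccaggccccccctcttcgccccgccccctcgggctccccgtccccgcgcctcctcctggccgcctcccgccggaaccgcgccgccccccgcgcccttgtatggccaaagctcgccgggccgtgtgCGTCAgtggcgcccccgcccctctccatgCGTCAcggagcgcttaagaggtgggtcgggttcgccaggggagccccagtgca
Plk2, chr2:43702286-43702535, plus strand: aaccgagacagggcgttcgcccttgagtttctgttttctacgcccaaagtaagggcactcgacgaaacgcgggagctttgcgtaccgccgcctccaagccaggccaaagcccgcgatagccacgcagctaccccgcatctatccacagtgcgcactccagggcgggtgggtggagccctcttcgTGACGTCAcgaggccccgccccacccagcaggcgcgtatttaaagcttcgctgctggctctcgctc
Sik1, chr20:9958647-9958896, minus strand: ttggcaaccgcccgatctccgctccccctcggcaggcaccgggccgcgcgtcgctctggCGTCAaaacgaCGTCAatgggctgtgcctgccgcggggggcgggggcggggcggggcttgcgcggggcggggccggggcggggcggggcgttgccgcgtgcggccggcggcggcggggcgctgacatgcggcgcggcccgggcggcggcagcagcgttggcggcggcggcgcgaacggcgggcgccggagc

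Nr4a1 held the most, 4 half-sites, the first at position -246 and the last at -53. In Plk2 the pair starts at -66 and -63 and forms 1 full site. Crem had its half-sites at -241 and -6, Egr4 at -178 and -110, and Sik1 at -191 and -180.

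Immediate early genes whose products act mainly outside the nucleus gave falls as well. Of 23 tested, 10 were lower, 0 higher and 13 not past the threshold, and the median was -0.65 at 9 h, -0.91 at 26 h and -0.40 within day 2. Arc, which drives endocytosis of AMPA receptors, read 1.08, 0.63 and 2.52 on untreated and -0.41, -0.84 and -0.01 on blocked arrays. Untreated replicate 3 stood well above the other untreated arrays, and the groups did not overlap. Arc fell by 1.83 ± 0.41 (3.55-fold, limma adjusted p = 0.0119), by 3.77 at 26 h and by 2.10 within day 2. Rgs2, which speeds the shut-off of Gq signals, was at 1.22, 1.59 and 1.19 untreated and -0.03, 0.07 and -0.20 blocked, and fell by 1.38 ± 0.17 (limma adjusted p = 0.000945). Its groups lay more than 1 log2 unit apart, and it also fell at 26 h (-2.14) and within day 2 (-1.57). Ptgs2, the inducible cyclooxygenase, fell by 1.55 at 9 h, 2.34 at 26 h and 1.76 within day 2. Sik1, a kinase that restrains CREB coactivators, fell by 1.13, 1.47 and 1.37 in the same order.

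Plk2, a kinase that weakens synapses when activity is high, fell by 1.16 at 9 h and fell by 1.004 at 26 h, with -0.40 within day 2 (limma adjusted p = 0.228). Its difference within day 1 was -1.76 and passed. Homer1, whose short form is induced by activity and whose long form is a scaffold, read 1.03, 1.199 and 1.03 untreated and 0.61, 0.51 and 0.54 blocked. The groups did not overlap, and Homer1 fell by 0.53 ± 0.11 (limma adjusted p = 0.00795), while at 26 h it stood at -0.10 and did not pass. Ccn1, a secreted matrix protein that serum and stretch also induce, had the largest fall of the list at 9 h, 2.25 ± 0.57, but read -0.56 at 26 h and 0.52 within day 2, neither past the threshold. Gadd45b, a DNA damage and demethylation factor, fell by 0.65 at 9 h and 1.02 at 26 h, and stood at -0.07 within day 2. Within day 1 Ccn1 read -3.33 and Gadd45b -1.60, and both passed. Ccn1 (highest limma adjusted p = 0.0758 without blocked 9 h replicate 2) and Gadd45b (0.0624 without blocked 9 h replicate 2) missed the threshold when single arrays were left out. The list had 6 lower members with the arrays of 9 h fitted alone.

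Late genes of the activity programme, most of them secreted, gave the longest list of falls. Of 37 tested, 20 were lower at 9 h and 1 higher (22 and 4 with the replicate block), 15 were lower at both times, and the median was -0.54 at 9 h, -0.76 at 26 h and -0.24 within day 2. Bdnf, the neurotrophin that strengthens excitatory synapses, read -0.64, -0.42 and -0.42 on untreated and -2.18, -2.21 and -2.43 on blocked arrays. The spread within a group was small beside the gap, and Bdnf fell by 1.78 ± 0.15 (3.44-fold, limma adjusted p = 0.000265). It fell by 3.41 at 26 h and by 2.75 within day 2 (limma adjusted p = 4.83e-05). Inhba, the beta A subunit of activin, read -1.32, -0.78 and -0.31 untreated and -3.08, -3.10 and -2.55 blocked. It fell by 2.10 ± 0.29 at 9 h, 2.79 at 26 h and 1.88 within day 2, and all 3 differences passed. Rgs4, which shuts off G protein signals, was at 2.65, 2.78 and 2.86 untreated and 1.39, 1.39 and 1.08 blocked. Its groups did not overlap at either time, and it fell by 1.48 ± 0.15 at 9 h, 2.72 at 26 h and 1.96 within day 2. Trpc6, a cation channel, was at -0.88, -1.08 and -1.12 untreated and -2.63, -3.001 and -2.96 blocked, and fell by 1.84 ± 0.16 (limma adjusted p = 0.000285), by 2.51 at 26 h and by 1.102 within day 2.

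Several neuropeptide genes were among the falls. Of 29 neuropeptide and processing genes, 7 were lower at 9 h and 1 higher (8 and 3 with the replicate block), and 6 were lower at both times. Crh, the corticotropin-releasing hormone, read -0.24, -0.31 and -0.58 untreated and -1.84, -1.84 and -1.98 blocked. It fell by 1.51 ± 0.13 (limma adjusted p = 0.000293), by 2.24 at 26 h and by 1.13 within day 2. Adcyap1, which encodes PACAP, fell by 1.46 at 9 h, 2.43 at 26 h and 1.23 within day 2. Tac1, the substance P precursor, was at 2.31, 2.42 and 2.22 untreated and 0.42, 0.60 and -0.21 blocked and fell by 2.05 ± 0.40. The opioid precursors Penk (-1.64) and Pdyn (-1.77) fell as well. For these last 3 the difference within day 2 (-0.83, -0.87 and -0.99) did not pass, while that at 26 h did. Within day 1 they read -2.93, -2.34 and -2.94, and all passed. Pcsk1, the convertase that cuts prohormones, fell by 1.02 at 9 h and by 1.92 at 26 h. Vip, the vasoactive intestinal peptide of interneurons, fell by 0.98 at 9 h and stood at -0.27 at 26 h, where it did not pass.

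Among the remaining late genes, Serpinb2, a protease inhibitor that protects neurons, read -1.23, -0.99 and -0.30 untreated and -3.13, -2.33 and -2.29 blocked and fell by 1.75 ± 0.33. It fell by 2.60 at 26 h, and its -0.94 within day 2 did not pass. Within day 1 it read -3.41 and passed. Mmp9, a matrix metalloprotease, fell by 0.97 at 9 h, and with all its blocked arrays of 26 h below background it was at least 1.83-fold lower then. Rasl11b, a small GTPase, fell by 0.54 at 9 h and 1.60 at 26 h. Nrn1, a neuritogenic surface protein, fell by 0.50 and 0.89. Within day 2 Mmp9 stood at -0.29 and Nrn1 at -0.24, neither past the threshold. Nptx2, a pentraxin that clusters AMPA receptors, was at 0.89, 1.52 and 1.501 untreated and 0.50, 0.64 and 0.68 blocked. The groups did not overlap, yet its difference of -0.70 did not pass (limma adjusted p = 0.0742, and 0.00403 with the replicate block). Left out 1 array at a time, Penk (highest limma adjusted p = 0.101 without blocked 9 h replicate 1), Pdyn (0.097 without blocked 9 h replicate 2), Mmp9 (0.0657 without untreated 9 h replicate 2), Nrn1 (0.117 without untreated 9 h replicate 2) and Rasl11b (0.0509 without untreated 9 h replicate 2) lost their calls, and 13 of the list were lower without untreated 9 h replicate 2.

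Feedback regulators of the Ras and ERK pathway divided by direction. Of 19 tested, 4 were lower and 4 higher at 9 h (21.1% each, beside 9.63% and 11.4% of all genes). Dusp6, a phosphatase of ERK, read 1.09, 1.23 and 1.62 untreated and 0.24, 0.27 and 0.53 blocked and fell by 0.97 ± 0.19. Its difference was -0.62 at 26 h, not past the threshold (limma adjusted p = 0.0525, and 0.0304 with the replicate block), and -0.84 within day 2, which passed. Dusp4, a nuclear phosphatase of the same kinases, fell by 1.14 at 9 h and 0.74 at 26 h. Spry4, which blocks growth factor signals to Ras, fell by 1.23 at 9 h and 1.06 at 26 h on the probe used, while its other probe read -0.00 at 9 h. Errfi1, an inhibitor of the EGF receptor, fell by 0.73 at 9 h and stood at -0.21 at 26 h. Within day 2 Dusp4 (-0.61), Spry4 (-0.79) and Errfi1 (-0.01) did not pass. Rasa1, a GTPase-activating protein that turns Ras off, rose by 0.59 at 9 h and stood at -0.40 at 26 h, which passed only with the replicate block (limma adjusted p = 0.00963). Errfi1 (highest limma adjusted p = 0.139 without blocked 9 h replicate 2) and Rasa1 (0.1 without blocked 9 h replicate 1) missed the threshold with single arrays left out. Elk1, an ERK target that acts with SRF, rose by 0.68 at 9 h, 0.70 at 26 h and 0.60 within day 2.

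A smaller set of genes rose at 9 h and did so at 26 h too. Hrk, a BH3-only protein that promotes apoptosis of neurons, read -1.03, -1.31 and -1.18 untreated and -0.06, -0.17 and 0.18 blocked at 9 h, and -1.33, -1.44 and -1.32 untreated and 0.40, 0.51 and 0.57 blocked at 26 h. All blocked arrays lay above all untreated ones at both times. Hrk rose by 1.15 ± 0.11 (2.22-fold, limma adjusted p = 0.000474), by 1.85 at 26 h and by 1.34 within day 2, and its other, dimmer probe stood at 0.20 at 9 h and did not pass. Of 20 genes known to be held down by activity or driven by FOXO factors, 3 rose (6 with the replicate block) and 1 fell. The 15% that rose is near the 11.4% of all genes. The same 3 were higher at both times, beside 0.527% of all genes. They were Hrk, the cell cycle gene Ccng2 (1.14 and 0.90) and the Krüppel-like factor gene Klf9 (0.43 and 0.50). Within day 2 Ccng2 stood at 0.85 and Klf9 at 0.30, neither past the threshold. The one that fell was the sestrin gene Sesn3, at -1.08, which stood at 0.70 at 26 h (limma adjusted p = 0.0785, and 0.0152 as higher with the replicate block). Txnip, an inhibitor of thioredoxin that many starved or silenced cells raise, read -0.55, -0.64 and -1.92 untreated and -0.04, -0.27 and -0.95 blocked. These arrays overlapped, and its difference of 0.62 did not pass (limma adjusted p = 0.289, and 0.041 with the replicate block). Klf9 also missed it when arrays were left out (highest limma adjusted p = 0.105 without blocked 9 h replicate 1).

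Gpr139, an orphan receptor of neurons, was below background on the untreated arrays of 9 h and read -6.04, -5.17 and -5.82 on the blocked ones. It was at least 3.86-fold higher at 9 h, and rose by 2.98 at 26 h and 2.04 within day 2. Cntn2, an axonal adhesion protein, read -4.26, -4.11 and -4.65 untreated and -2.53, -2.495 and -2.66 blocked and rose by 1.78 ± 0.14 (limma adjusted p = 0.000211). It rose by 1.18 at 26 h, while its 0.53 within day 2 did not pass. Tgfb3, a growth factor of the TGF-beta family, was at -3.60, -3.49 and -3.42 untreated and -1.81, -1.75 and -2.05 blocked. It rose by 1.64 ± 0.11, by 0.61 at 26 h and by 1.23 within day 2, with no overlap of groups. Plcxd2, a phospholipase-like protein, rose by 1.25, 1.55 and 1.07 in the same order. Camkk1, a kinase upstream of calmodulin kinase IV, rose by 0.70 at 9 h, 0.73 at 26 h and 1.42 within day 2, and its other probe did not pass at 9 h. Tef, a clock output factor, rose by 0.66 and 0.80, and its relative Dbp by 0.59 at 9 h, with 0.28 at 26 h and -1.31 within day 2, which passed in the other direction. Krt27, a keratin gene, rose by 1.71 and 1.65, the complement regulator gene Cd55 by 1.51 and 1.39, and the olfactory receptor gene Or9s13 by 1.57 and 1.37. Klk1b3, a kallikrein, was at least 2.31-fold higher at 9 h. Only 2 of 3 untreated arrays of 9 h gave Cd55 and Or9s13 well above background, and all 3 gave Klk1b3 below it. The other probe of Cd55 read 0.08 at 26 h. Cd55 (highest limma adjusted p = 0.0563 without blocked 9 h replicate 3), Or9s13 (0.0614 without blocked 9 h replicate 1) and Dbp (0.0567 without blocked 9 h replicate 1) missed the threshold with single arrays left out.

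**Figure D4:**
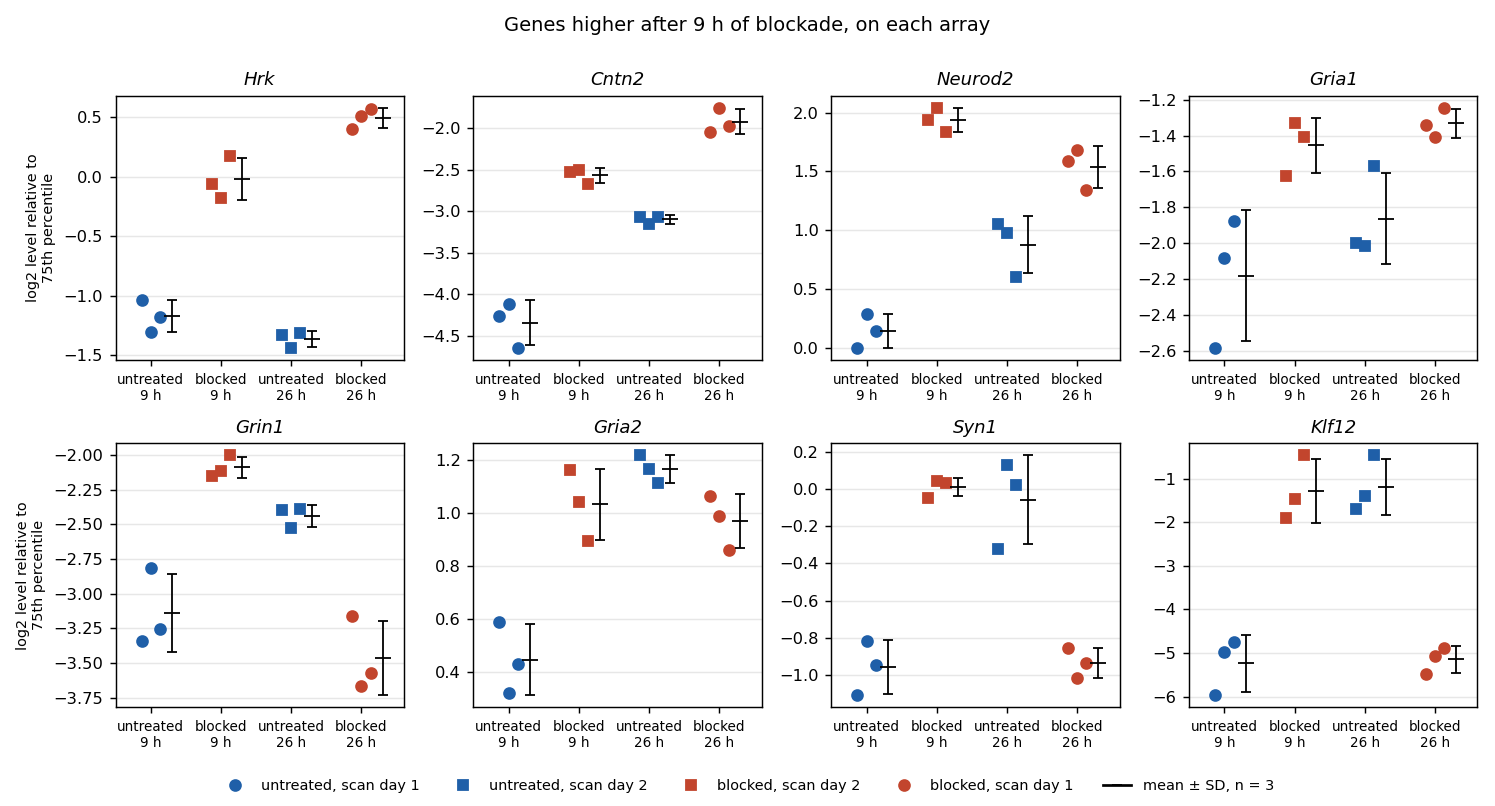
Level of 8 genes that were higher after 9 h of blockade (y axis, log2 relative to the 75th percentile of the array, a separate scale per gene) on each array of the 4 groups (x axis), with mean and SD over 3 arrays beside the points and the scan day as the shape. Hrk, Cntn2 and Neurod2 are higher in blocked cultures at both times. Grin1, Syn1 and Klf12 are higher in blocked cultures at 9 h and lower at 26 h.

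Genes of the receptors that the antagonists block were measured next. Of 22 genes for AMPA receptor subunits and their partners, 8 were higher at 9 h (36.4%, beside 11.4% of all genes) and 0 lower. At both times 0 were higher, beside 0.527% of all genes, a share too small for a 0 among 22 to tell. The median was 0.40 at 9 h, -0.17 at 26 h and 0.05 within day 2. Gria1, the GluA1 subunit, read -2.58, -2.08 and -1.88 untreated and -1.62, -1.33 and -1.41 blocked, without overlap. It rose by 0.73 ± 0.19 (limma adjusted p = 0.0206), and its differences of 0.53 at 26 h and 0.41 within day 2 did not pass (limma adjusted p = 0.0795 and 0.298). With the replicate block Gria1 was higher at 26 h as well (limma adjusted p = 0.0195). Gria2, the subunit that keeps calcium out, read 0.59, 0.32 and 0.43 untreated and 1.16, 1.04 and 0.89 blocked at 9 h and rose by 0.59 ± 0.11. At 26 h it stood at -0.19 and within day 2 at -0.13, and its other probe read 0.13 at 9 h and did not pass. Gria3 (-0.30) did not pass on the probe used (limma adjusted p = 0.118, and 0.0235 as lower with the replicate block), and its other probe passed as higher, by 0.46. At 26 h Gria3 stood at 0.30 and passed as higher with the replicate block (limma adjusted p = 0.0274). Gria4 stood at -0.19 (limma adjusted p = 0.575), with overlapping arrays, and at 0.50 at 26 h, higher only with the replicate block (limma adjusted p = 0.0184).

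The auxiliary subunit gene Cnih2, a cornichon that slows channel closing, read 1.96, 2.24 and 2.08 untreated and 2.89, 2.91 and 2.82 blocked and rose by 0.78 ± 0.09, but fell by 0.40 at 26 h. Cacng7, a TARP, rose by 0.99 and fell by 0.76 at 26 h. Olfm1, an extracellular partner of the receptor, rose by 0.91 at 9 h and stood at 0.19 at 26 h and 0.42 within day 2. Grip2, which anchors GluA2, rose by 1.07, stood at -0.04 at 26 h, and read -0.14 at 9 h on its other probe. Gria1 missed the threshold with single arrays left out (highest limma adjusted p = 0.0736 without blocked 9 h replicate 2), and 5 of the list were higher without blocked 9 h replicate 2. With the replicate block 13 were higher and 3 lower.

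Of 8 NMDA receptor genes 2 were higher and 0 lower (3 and 0 with the replicate block). Grin1, the subunit that each NMDA receptor needs, read -3.34, -2.81 and -3.25 untreated and -2.15, -2.12 and -2.002 blocked at 9 h and -2.40, -2.53 and -2.39 untreated and -3.16, -3.67 and -3.57 blocked at 26 h. It was higher in blocked cultures at 9 h by 1.05 ± 0.16 (limma adjusted p = 0.00229) and lower at 26 h by 1.03, without overlap at either time. Within day 2 it stood at 0.35 (limma adjusted p = 0.309). Grin2a, the subunit of mature synapses, rose by 0.73 and stood at -0.13 at 26 h. Grin2b read -3.82, -3.15 and -3.39 untreated and -3.16, -3.36 and -3.05 blocked, the arrays overlapped, and 0.26 did not pass (limma adjusted p = 0.34). Of 15 kainate, delta and metabotropic receptor genes 5 were higher and 1 lower (8 and 1 with the replicate block). Grm5, a receptor that couples to Gq, rose by 0.87 and Grik5, a kainate subunit, by 0.70, and they stood at -0.37 and -0.24 at 26 h. Grid1, a delta receptor, fell by 0.63 at 9 h and rose by 0.53 at 26 h.

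Of the scaffold, release and adhesion genes of the synapse that passed at 9 h, most were higher. Of 30 postsynaptic scaffold genes 8 were higher and 1 lower (median 0.33 at 9 h, -0.22 at 26 h and 0.08 within day 2). With the replicate block 16 were higher and 2 lower. At both times 0 were higher, beside 0.527% of all genes, a share too small for a 0 among 30 to tell. Camk2b, the calmodulin kinase subunit that bundles actin, read 0.73, 0.74 and 0.71 untreated and 1.98, 2.04 and 1.73 blocked and rose by 1.19 ± 0.13 (limma adjusted p = 0.000587). It was -0.51 at 26 h, which passed as lower, and 0.28 within day 2, which did not pass. Baiap2, an actin regulator of spines, rose by 0.90 at 9 h and fell by 0.80 at 26 h. Of 39 genes of transmitter release 16 were higher and 2 lower (median 0.36, -0.05 and 0.05 in the same order), and with the replicate block 19 and 4. Syn1, a synapsin that tethers vesicles, read -1.11, -0.82 and -0.95 untreated and -0.05, 0.04 and 0.03 blocked at 9 h and -0.32, 0.13 and 0.03 untreated and -0.85, -1.02 and -0.94 blocked at 26 h. It rose by 0.97 ± 0.13 at 9 h, fell by 0.88 at 26 h and stood at 0.07 within day 2. The dynamin gene Dnm1, needed for vesicle retrieval, rose by 1.12 at 9 h and fell by 0.55 at 26 h. Unc13b, a vesicle priming factor, moved the other way and kept its direction, with falls of 1.30 at 9 h and 1.71 at 26 h. Between 7 (without blocked 9 h replicate 1) and 16 release genes were higher when single arrays were left out, 8 without untreated 9 h replicate 3 and 10 without blocked 9 h replicate 2.

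Of 34 synaptic adhesion genes 11 were higher and 2 lower (16 and 3 with the replicate block). Lrfn5, a synaptic organiser, rose by 1.198 at 9 h and fell by 0.73 at 26 h, and Nlgn1, a neuroligin of excitatory synapses, rose by 1.08 and stood at -0.40. Pcdh19, a protocadherin, was among the few that were higher at both times, by 0.71 and 0.79. Pcdh8, a protocadherin that activity is known to induce, fell by 0.96 at 9 h and 1.68 at 26 h. Pcdh17 fell by 0.94 at 9 h and read 0. at 26 h, and its other probe did not pass at 9 h. Of 22 genes of the GABA synapse 4 were higher (18.2%, beside 11.4% of all genes) and 1 lower (8 and 2 with the replicate block). Gad1, the GABA-synthesising enzyme, read 3.04, 2.85 and 2.68 untreated and 3.19, 3.10 and 2.84 blocked, the arrays overlapped, and 0.19 did not pass (limma adjusted p = 0.583). At 26 h it stood at -0.61, lower only with the replicate block (limma adjusted p = 0.00579). Gabra4, a receptor subunit found outside synapses, fell by 0.51 at 9 h and stood at -0.16 at 26 h.

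Ion channel genes that passed at 9 h were mostly higher too. Of 14 calcium channel genes 6 were higher and 0 lower at 9 h, and 9 and 0 with the replicate block (median 0.41, against -0.27 at 26 h and 0.14 within day 2), and 3 were higher with the arrays of 9 h fitted alone. Cacnb3, a cytoplasmic subunit, read 2.496, 2.06 and 2.21 untreated and 3.55, 3.34 and 3.06 blocked and rose by 1.06 ± 0.15, with -0.27 at 26 h and 0.08 within day 2. The T-type channel genes Cacna1g and Cacna1i rose by 0.86 and 0.92 at 9 h and fell by 0.33 and 0.84 at 26 h. Of 45 potassium and HCN channel genes 11 were higher and 3 lower (15 and 10 with the replicate block). Hcn2, a pacemaker channel, rose by 1.08 at 9 h and fell by 0.95 at 26 h. Kcnip2, a subunit of A-type channels, rose by 0.87 at 9 h and 0.90 within day 2, and Kcnc4, a fast delayed rectifier, by 0.91 at 9 h, with 0.13 and 0.37 at 26 h, neither past the threshold. With the replicate block Kcnc4 passed as higher at 26 h (limma adjusted p = 0.0318). Kcnj4, an inward rectifier, read -2.07, -1.64 and -1.74 untreated and -2.52, -2.55 and -2.77 blocked. Its groups did not overlap, and it fell by 0.80 ± 0.15 at 9 h, 1.53 at 26 h and 1.21 within day 2. Of 11 sodium channel genes 1 was higher (9.09%, beside 11.4% of all genes) and 0 were lower by limma (4 and 1 with the replicate block).

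**Figure D5:**
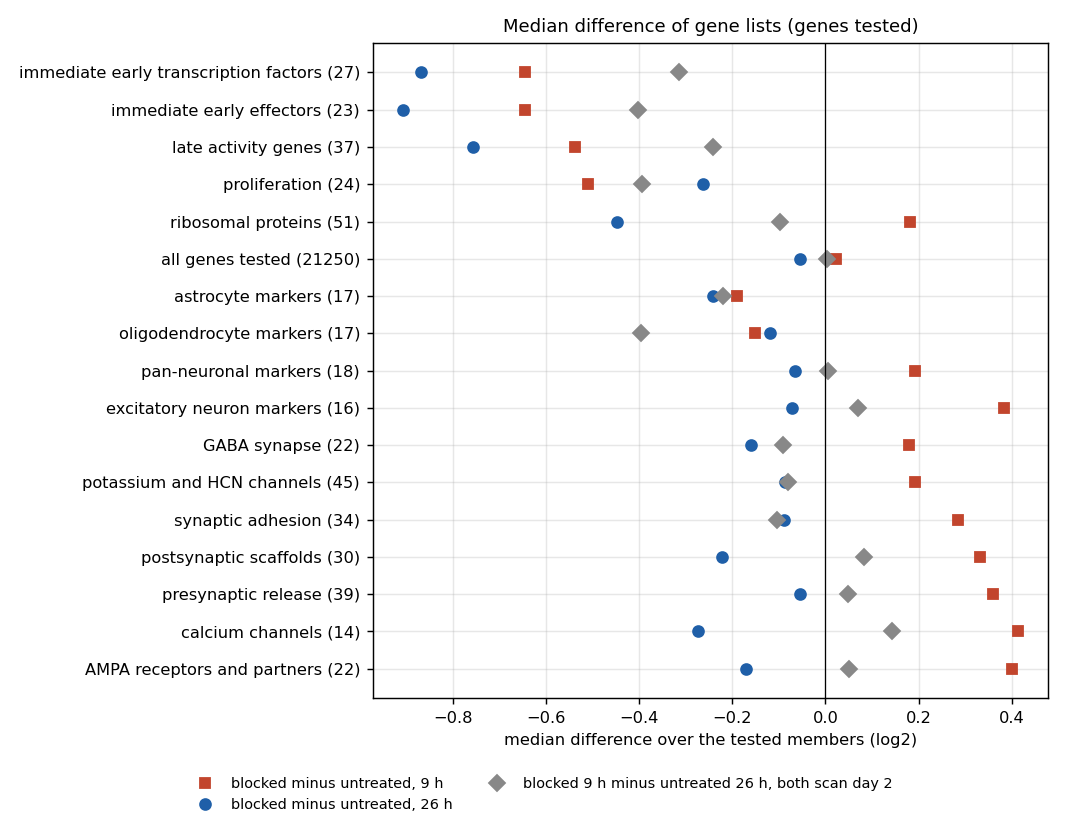
Median difference over the tested members of 16 gene lists and over all genes (x axis, log2), with the number of genes in brackets. Squares are the comparison at 9 h, circles that at 26 h and diamonds blocked 9 h minus untreated 26 h, both scanned on day 2. The 3 activity lists lie left of 0 in each of the comparisons, and the AMPA receptor list is at 0.40 at 9 h and -0.17 at 26 h.

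Some markers of excitatory neurons were higher in blocked cultures at 9 h. Of 16 tested, 6 rose and 0 fell (10 rose and 1 fell with the replicate block), and the median was 0.38 at 9 h, -0.07 at 26 h and 0.07 within day 2. Their summed linear level was 21.56 to 23.2 times the 75th percentile signal on untreated and 30.23 to 34.07 on blocked arrays of 9 h. The untreated arrays of 26 h, scanned on day 2 like the blocked arrays of 9 h, gave 27.98 to 34.76. The blocked arrays of 26 h, scanned on day 1 like the untreated arrays of 9 h, gave 31.98 to 34.93. Neurod2, a differentiation factor of cortical and hippocampal projection neurons, read 0.00, 0.28 and 0.14 untreated and 1.94, 2.04 and 1.83 blocked. It rose by 1.80 ± 0.14 (3.47-fold, limma adjusted p = 0.000234), by 0.66 at 26 h and by 1.06 within day 2. Neurod6 rose by 1.19 and Nrgn, a calmodulin-binding protein of dendrites, by 1.16 at 9 h, and at 26 h they stood at -0.09 and -0.26. Their differences of 0.48 and 0.57 within day 2 did not pass. Slc17a7, the vesicular glutamate transporter VGLUT1, rose by 0.94 at 9 h and 0.70 within day 2 and stood at 0.09 at 26 h.

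Receptors for other transmitters were among the rises that kept their sign. Of 30 monoamine and acetylcholine receptor genes 6 were higher at 9 h (20%, beside 11.4% of all genes) and 1 lower (8 and 3 with the replicate block). All 6 of the former lay above 0 at 26 h, where 1 passed. Chrna5, a nicotinic subunit, read -5.17, -5.40 and -5.38 untreated and -3.91, -4.30 and -4.33 blocked. It rose by 1.13 ± 0.12, by 0.77 at 26 h and by 0.93 within day 2. Htr1a, the inhibitory serotonin receptor of pyramidal cells, rose by 1.88 at 9 h and 1.44 within day 2 and stood at 0.78 at 26 h (limma adjusted p = 0.0549, and 0.00969 with the replicate block), and 2 of 3 untreated arrays of 9 h gave it well above background. Adra2c, an adrenoceptor, rose by 1.59 at 9 h and stood at 0.10 at 26 h. Wnt4, a secreted ligand, rose by 1.34 at 9 h and 1.34 within day 2, with 0.73 at 26 h (limma adjusted p = 0.0721, and 0.0148 with the replicate block). Of 24 cholesterol synthesis genes 5 were higher (20.8%, beside 11.4% of all genes) and 1 lower (9 and 1 with the replicate block). Dhcr7, which makes cholesterol in the final step, rose by 1.28 and Insig1, which holds back SREBP, by 0.94 at 9 h, and at 26 h they stood at 0.04 and 0.58. Insig1 lost its call with single arrays left out (highest limma adjusted p = 0.0948 without blocked 9 h replicate 1).

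Genes of dividing, glial and meningeal cells were counted beside the shares of all genes, 11.4% higher and 9.63% lower by limma without the block. With the replicate block, 3920 of all 21250 genes were higher and 3705 lower, more than without it. Of 24 proliferation genes 4 were lower and 0 higher at 9 h by limma (16 lower and 1 higher with the replicate block), with medians of -0.51 at 9 h, -0.26 at 26 h and -0.39 within day 2. Kif11, the mitotic kinesin, fell by 0.99 at 9 h and stood at 0.22 at 26 h, and lost its call with single arrays left out (highest limma adjusted p = 0.112 without blocked 9 h replicate 1). Of 17 oligodendrocyte lineage markers 3 fell and 0 rose by limma (6 and 2 with the replicate block). Cspg4, the NG2 proteoglycan of precursor cells, read 1.28, 1.69 and 1.17 untreated and 0.08, 0.66 and 0.18 blocked. It fell by 1.07 ± 0.17 at 9 h and by 1. within day 2, and stood at 0.04 at 26 h. Bcas1, a marker of cells that begin to myelinate, fell by 1.24 and the myelin gene Opalin by 1.05 at 9 h, and at 26 h they stood at -0.09 and 0.13. Bcas1 read -0.30 on its other probe, and Opalin missed the threshold with single arrays left out (highest limma adjusted p = 0.154 without blocked 9 h replicate 1). The summed level of these markers was 17.19 to 21.63 on untreated and 14.18 to 20.65 on blocked arrays. Of 17 astrocyte markers 2 fell and 0 rose, of 17 microglial markers 2 rose, and of 19 meningeal and vascular markers 2 fell. With the replicate block 6 astrocyte and 4 meningeal and vascular markers fell, and 2 microglial markers rose.

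Gene groups with general roles were counted in the same way. Of 14 reference genes 2 were higher at 9 h and 0 lower (median 0.19), of 51 ribosomal protein genes 2 were lower and 0 higher (median 0.18 at 9 h and -0.45 at 26 h), and of 38 genes of oxidative phosphorylation 2 were higher and 3 lower. With the replicate block 3 reference genes were higher, 5 ribosomal protein genes lower, and 3 genes of oxidative phosphorylation higher and 5 lower. Of 23 antioxidant genes 0 passed by limma without the block, and 1 was higher and 2 lower with it.

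The largest falls at 9 h were partly shared with 26 h. Cdkn1c, a cell cycle inhibitor, read 0.22, 0.01 and 0.63 untreated and -2.77, -2.29 and -2.41 blocked, and fell by 2.77 ± 0.43 (limma adjusted p = 0.00227), with -1.26 at 26 h and -1.69 within day 2, neither past the threshold (at 26 h limma adjusted p = 0.0728, and 0.0263 with the replicate block). Ism1, a secreted protein, read 0.12, 0.42 and -0.06 untreated and -2.28, -2.23 and -2.06 blocked. It fell by 2.35 ± 0.19 at 9 h, 1.06 at 26 h and 1.03 within day 2. Rd3l fell by 2.37 at 9 h and 2.19 at 26 h, and Perm1, a regulator of mitochondrial genes, by 1.98, 3.18 and, within day 2, 2.82. Blnk, an adaptor of B cell receptor signals, fell by 1.87 and 2.54, Cga, the alpha subunit of glycoprotein hormones, by 1.999 and 2.16, and the neuropeptide receptor gene Qrfpr by 1.90 at 9 h, with 1 of 3 blocked arrays well above background. Qrfpr was at least 2.36-fold lower at 26 h. Spesp1 was at least 3.19-fold lower and Nkx2-3, a homeobox gene, at least 4.37-fold lower at 9 h, and Rhox12, another homeobox gene, fell by 2.36, with 2 of 3 blocked arrays well above background. At 26 h Nkx2-3 and Rhox12 stood at 0.59 and 0.88 and did not pass. Tmem215, well above background on 2 of 3 untreated arrays, rose by 2.29 and stood at 0.20 at 26 h.

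Most of the largest rises at 9 h were falls at 26 h. Klf12, a Krüppel-like repressor, read -5.97, -4.99 and -4.74 untreated and -1.90, -1.46 and -0.47 blocked at 9 h and -1.70, -1.39 and -0.47 untreated and -5.49, -5.07 and -4.88 blocked at 26 h. The arrays of day 2 were high and those of day 1 low whatever the treatment. Klf12 rose by 3.96 at 9 h, fell by 3.96 at 26 h and stood at -0.09 within day 2. The uncharacterised gene 1700001K19Rikl (4.05, -4.51 and -0.19 in the same order), the homeobox gene Alx4 (3.25, -3.81 and -0.10), the inositol kinase gene Itpkb (2.22, -2.20 and -0.08) and Fam163b (2.30, -2.24 and 0.03) did likewise. Of the 3 untreated arrays of 9 h, 2 gave Alx4 and 1 gave Itpkb well above background. Aadacl4fm1 was at least 3.41-fold higher at 9 h and at least 3.91-fold lower at 26 h, and stood at 0.04 within day 2. Klf12 read 0.21 and Fam163b 0.53 at 9 h on their other probes, neither past the threshold. Single arrays left out ended the calls of Alx4 (highest limma adjusted p = 0.0661 without blocked 9 h replicate 3), Aadacl4fm1 (0.0735 without untreated 9 h replicate 2), Spesp1 (0.067 without untreated 9 h replicate 3), Cga (0.153 without blocked 9 h replicate 1) and Qrfpr (0.104 without blocked 9 h replicate 3).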

How the data were processed

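RNA of 12 cultures, 3 in each of 4 groups, was measured on 1-colour Agilent arrays of rat transcripts on 6 slides. The scans had been read out with version 10.5.1.1 of Agilent's Feature Extraction, as given per the file headers, and the deposited processed signal is an intensity with the background subtracted within the array and no scaling between arrays. The authors also deposited a table of log2 values, which regression matched to log2 of the processed signal less a constant per array (slopes of 1.0001 to 1.0002). Its rule for the constants is not given in the sources used here.

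Here the processed signal was taken as log2 minus the 75th percentile of non-control spots, leaving out outlier-flagged spots and averaging spots of a probe. A probe was kept if every array of some group gave it well above background (24034 of 30367). Names came from transcript accessions of the RefSeq gene table of GRCr8, which matched 18004 probes, and the other 12363 were left unnamed. The kept probe with the highest mean stood for its gene, and 2536 genes had more than 1. Of 31 such genes named in the text, 26 had 1 sign on every probe at 9 h. On the probe used 28 of them passed, and 14 passed on every kept probe. The 12 arrays were fitted with group means in limma 3.58.1 (R 4.3.3), two-sided, with Benjamini-Hochberg adjustment over all 21250 genes and a threshold of 0.05, after a test on simulated data. The median SE at 9 h was 0.17, and the 3 arrays per group limit the precision. A probe below background on all arrays of a group has only a bound there, taken against the lowest signal well above background on each array.

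Same-numbered cultures deviated together at 9 h (correlations of 0.496, 0.177 and 0.538 across genes, over the 0.1 set for pairing), so values with the replicate block stand beside the counts and calls it moved. Named genes were the 8 largest rises and falls at 9 h without overlap of arrays, the 8 leading genes in each direction at both times, up to 4 per direction from each of 47 lists, and 20 genes by name. Fosl2, Junb, Csrnp1, Atf3, Sik1, Gadd45b, Adcyap1, Pcsk1, Nrn1, Mmp9, Rasl11b, Kcnip2 and Pcdh19 are list members added after their values were seen. The members, lists, rules and alternatives were chosen with earlier results of these data known. Of 1112 list symbols, 1007 were tested. Alternatives covered the block, the arrays of 9 h alone, slide as a random block, other scalings, normexp, the deposited table, filters, probe means, array weights and left-out arrays. For normexp the median spot and local background signals were used. Promoters and their matches came from the RefSeq table.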

Additional observations from a re-analysis of the deposited data

Results flagged for a closer look

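For the genes below the difference at 9 h departed from that at 26 h by a test of the change itself (difference at 9 h minus difference at 26 h on the log2 scale, limma interaction term, adjusted p below 0.05 over all genes). Over all genes, 6077 of 21250 did so. Scan day runs in opposite directions at the 2 times, so that time and day cannot be told apart here.

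Activity genes lay further below 0 at 26 h than at 9 h, and the change was 3.84 for Npas4, 2.73 for Nr4a1, 2.27 for Nfil3, 1.94 for Arc, 1.63 for Bdnf, 1.63 for Egr1 and 1.24 for Rgs4. It was 1.06 for Rasl11b, 0.98 for Adcyap1, 0.90 for Pcsk1, 0.75 for Rgs2, 0.73 for Crh and 0.68 for Trpc6. Of other genes lower at both times, Cyp26b1 had 2.30, Car7 1.70, Cckbr 0.83 and Kcnj4 0.74, while Ism1 (-1.29) fell more at 9 h.

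Of genes higher at both times, the change was 1.03 for Tgfb3, 1.14 for Neurod2, 0.76 for Nos1 and 0.60 for Cntn2, and below 0 for Hrk (-0.70) and Il34 (-1.26), which rose more at 26 h.

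Synaptic receptor genes higher at 9 h and not at 26 h had changes of 2.07 (Grin1), 0.86 (Grin2a), 0.78 (Gria2), 1.11 (Grip2), 1.18 (Cnih2), 1.75 (Cacng7), 0.71 (Olfm1), 1.24 (Grm5) and 0.95 (Grik5). Scaffold, release and adhesion genes gave 1.70 for Camk2b, 1.69 for Baiap2, 1.42 for Nrgn, 1.85 for Syn1, 1.67 for Dnm1, 0.85 for Slc17a7, 1.93 for Lrfn5 and 1.47 for Nlgn1. Channel genes gave 1.19 for Cacna1g, 1.76 for Cacna1i, 1.33 for Cacnb3 and 2.03 for Hcn2.

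Of the other genes higher at 9 h, Jund changed by 1.36, Rasa1 by 0.99, Neurod6 by 1.29, Htr1a by 1.1, Adra2c by 1.49, Dhcr7 by 1.23 and Tmem215 by 2.10. Npas4 and Aadacl4fm1 have only a bound at 26 h, and Aadacl4fm1 and Nkx2-3 at 9 h, so that their fitted changes are no exact sizes. The widest changes among these genes were those of 1700001K19Rikl (8.57), Klf12 (7.92), Alx4 (7.06), Aadacl4fm1 (6.0), Fam163b (4.53) and Itpkb (4.43).

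Genes below 0 at 9 h and higher or nearer 0 at 26 h were Rhox12 (-3.24), Nkx2-3 (-2.92), Sesn3 (-1.78), Kif11 (-1.21), Grid1 (-1.16), Bcas1 (-1.16), Cspg4 (-1.11), Pcdh17 (-0.94), Vip (-0.71) and Gria3 (-0.60).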

How the results depend on the processing

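None of the 133 named genes changed sign among called values under the alternatives run. Of the 126 that passed at 9 h, 106 kept their call in every alternative that used all 12 arrays, and 68 kept it in those with fewer arrays too. With all 12 arrays, Atf3 lost its call in 4 alternatives, and Nrn1, Klf9, Qrfpr and Adcy8 in 2 each. Nr4a1, Mmp9, Rasl11b, Rasa1, Grid1, Insig1, Opalin and Cga lost it in 1 each. So did Rhox12, Nkx2-3, Spesp1, Aadacl4fm1, Gfra2, Il34 and Cckbr. With the replicate number as a block, 7625 genes passed at 9 h (3920 higher, 3705 lower), 343 were higher and 362 lower at both times, and 3161 had opposite calls. In the lists, 13 AMPA receptor, 16 scaffold and 10 excitatory marker genes were then higher. Among named genes the block added calls at 9 h for Nptx2, Txnip and Gria3 and removed none.

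With the 6 arrays of 9 h alone, 2042 passed (1113 higher, 929 lower), with 7 immediate early factors, 6 effectors and 2 ERK feedback genes lower and 5 AMPA receptor, 7 release and 3 calcium channel genes higher. Scaling to the median in place of the 75th percentile left 8 release genes higher. Without the filter on dim probes 3825 genes were lower at 9 h. Array weights gave 3383 lower at 9 h, 338 higher and 342 lower at both times and 3597 opposite calls.

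Without replicate 3 of every group, 1744 passed (1092 higher, 652 lower), 43 were higher and 46 lower at both times, 99 had opposite calls, 6 effectors, 12 late genes and 1 feedback gene were lower, and 9 release and 3 calcium channel genes were higher. With 1 array left out at a time, 2774 to 4642 genes passed at 9 h (1445 to 2489 higher, 1170 to 2248 lower), 60 to 137 were higher and 94 to 152 lower at both times, and 620 to 1553 had opposite calls. The lists then ranged from 13 to 21 late genes lower, 7 to 16 release genes higher and 5 to 9 AMPA receptor genes higher. Fewer arrays enter these fits. For the other changes the cause was not tested. Signal near background limits Gpr139, Klk1b3, Cd55, Or9s13, Alx4 and Spesp1.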

Other observations

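Further genes changed in the same direction at 9 h and 26 h, with the scan days reversed between the times. They were chosen after their values were seen, and each value is a limma difference with 3 arrays against 3. Nos1, the neuronal nitric oxide synthase, well above background on 2 of 3 untreated arrays, rose by 1.58 at 9 h (limma adjusted p = 0.000569), 0.82 at 26 h and 0.93 within scan day 2, while its other probe read 0.41 at 9 h and did not pass. Gfra2, the receptor of neurturin, read -2.70, -2.65 and -2.83 untreated and -1.49, -1.87 and -1.51 blocked at 9 h and rose by 1.105, 0.95 and 1.37 in the same order. Its other probes read 0.70 and -0.28 at 9 h, neither past the threshold, and with the mean of its probes Gfra2 lost its call (limma adjusted p = 0.173). Oprl1, the nociceptin receptor, rose by 0.96, 0.94 and 1.02. The store-operated calcium channel gene Orai2 rose by 1.15 and 0.85, and Il34, a neuronal cytokine that microglia need, by 0.60 at 9 h and 1.86 at 26 h.

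In the other direction, Cyp26b1, which breaks down retinoic acid, fell by 1.03 at 9 h, 3.33 at 26 h and 1.65 within day 2. Car7, a carbonic anhydrase of neurons, read -3.45, -3.28 and -3.16 untreated and -3.73, -4.27 and -4.25 blocked at 9 h and fell by 0.79, 2.49 and 2.21 in the same order. Cckbr, the brain cholecystokinin receptor, fell by 0.76 and 1.59. Its other probe read -0.30 at 9 h and did not pass, and neither did the mean of its probes (limma adjusted p = 0.101). Gch1, which starts the synthesis of tetrahydrobiopterin, the cofactor of nitric oxide synthase, fell by 1.05 at 9 h and 1.41 at 26 h, but stood at 0.45 within day 2. Adcy8, a calcium-stimulated adenylyl cyclase, fell by 0.79 and 1.1. Il34 (highest limma adjusted p = 0.112 without blocked 9 h replicate 1), Cyp26b1 (0.125 without blocked 9 h replicate 2) and Adcy8 (0.097 without blocked 9 h replicate 3) missed the threshold at 9 h with single arrays left out.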
